A study of Mus musculus with 24 samples.

Results

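The genes described here are 10 members of the antioxidant and glutathione defence of the cell: Nfe2l2, Keap1, Nqo1, Gclc, Gclm, Txnrd1, Srxn1, Gsr, Gpx4 and Gpx1. They were taken by gene symbol from a table of read counts of 21965 genes, and all 10 were found and passed the filter on low counts (a sum of at least 10 counts over all libraries, passed by 17167 genes). The table holds 24 libraries from the spinal cord of OL-Ribotag mice (with an rpl22HA allele), in which an HA tag on the ribosomal protein RPL22 is switched on by a tamoxifen-inducible Cre driven in myelinating glia, so that the polysomes of mature oligodendrocytes (OLs), the myelinating cells of the central nervous system, can be pulled down. Animals were naive, or had a contusive spinal cord injury (SCI) of 50 kdyn at T9 and were taken at day post-injury (dpi) 2, 10 or 42. At each time a library was made from the immunoprecipitated RNA (the OL translatome) and one from total spinal cord RNA of the same tissue, which gives 8 groups of 3 libraries. The naive controls carried the same alleles and had received tamoxifen as the injured mice had, and each biological sample pooled 2 female mice. The labels give an age of 10 to 12 weeks at injury, whereas the study's methods give a younger age. Per the study's methods, naive and dpi 42 tissue was collected on the same day. The dpi 2 and dpi 10 mice were thus younger, and nearer to their tamoxifen treatment, than naive mice, and age and early injury cannot be told apart there. The tag marks only part of the OLs, the Cre driver is also active in Schwann cells, and RNA from other cells can be carried into the OL libraries.

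Nfe2l2 encodes NRF2, a transcription factor that switches on antioxidant genes by binding, with a small MAF partner, to the antioxidant response element (ARE) in their promoters. KEAP1 holds NRF2 in the cytoplasm and hands it to an ubiquitin ligase for degradation until electrophiles or oxidants modify KEAP1, so NRF2 is controlled largely at the level of its protein, which these data do not measure. Its targets make and recycle glutathione (GCLC and GCLM, the catalytic and modifier subunits of glutamate-cysteine ligase, and GSR, glutathione reductase), keep thioredoxin and peroxiredoxins reduced (TXNRD1 and SRXN1) and reduce quinones (NQO1). GPX1 and GPX4 spend glutathione on hydrogen peroxide and on lipid hydroperoxides, respectively, and GPX4 is the enzyme that holds off ferroptosis, an iron-dependent death by lipid peroxidation. Myelin is rich in lipid and OLs in iron, which is why these genes are of interest in injured white matter.

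Txnrd1, Gpx4 and Gpx1 are selenoprotein genes, in which a TGA codon inside the reading frame is read as selenocysteine, the residue at the active site. The sequences around that codon are shown because they set these 3 members apart from the other 7 and because their translation depends on a machinery of its own, described further on. They are on the plus strand of GRCm38, as annotated by GENCODE, with the selenocysteine codon in capitals:
Txnrd1: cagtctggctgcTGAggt
Gpx4: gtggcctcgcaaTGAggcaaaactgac
Gpx1: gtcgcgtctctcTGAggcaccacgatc
The codon is at chr10:82896037-82896039 in Txnrd1, where it is codon 612 of 613, at chr10:80054737-80054739 in Gpx4 (codon 129 of 253) and at chr9:108339451-108339453 in Gpx1 (codon 47 of 201). In Txnrd1 it is the last codon but one of the frame, whereas in both peroxidases it lies well inside it. Codons are numbered in the transcript with the longest reading frame among those annotated with this codon. Other transcripts of the same gene can number it differently.

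The promoters of the members were searched on both strands for the core of the ARE, TGACNNNGC, and for the AP-1 site TGAGTCA, which can overlap an ARE, in the 300 bases from 250 before to 50 after each RefSeq start site (GRCm38.p6). The core stood in 12.4% of all 32851 such promoters and TGAGTCA in 5.2%. The windows of the members with a match are given in the direction of transcription, with the matched letters in capitals (where these read GC first, the match is on the opposite strand):
Srxn1, TGAGTCA: ctcggagggccTGAGTCAccacgctgtg
Srxn1, TGAGTCA: caaattcacccTGAGTCAgcggccgggc
Srxn1, core: ggcagtgggcaGCTAGGTCAgagtgagaca
Gclm, core: cgctcccgggcGCACCGTCAactctcacga
Nfe2l2, core: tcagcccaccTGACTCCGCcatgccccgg
Txnrd1, core: actggatttttGCTTTGTCAttctgacacg
Srxn1 had the most matches, with TGAGTCA at -102 (chr2:152105411-152105438) and -45 (chr2:152105468-152105495) and the core at 28 after the start site (chr2:152105541-152105570). The other matches were at -134 in Gclm (chr3:122245412-122245441), at -240 in Nfe2l2 (chr2:75704885-75704913, minus strand) and at -92 of the second start site of Txnrd1 (chr10:82859103-82859132). No match stood in the windows of Nqo1, Keap1, Gpx1 or Gpx4, and Gclc and Gsr had no entry. Known AREs lie farther upstream in several of these genes, so the windows describe only the sequence next to the start.

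OL libraries held 29075211 to 32987841 counts over all genes and total RNA libraries 25840127 to 29050061, and levels are given as CPM (a gene's count relative to the library total) after TMM scaling, with 3 counts worth 0.084 to 0.127 CPM. The 7 OL markers (Mbp, Mog, Mag, Mobp, Cldn11, Opalin and Ermn) were all enriched in OL libraries in each group, with a summed level of 70576 to 95409 CPM against 14821 to 18647 CPM in total RNA. Markers of other cells were present in the OL libraries: 6 astrocyte markers summed to 6259 to 12188 CPM in 5 OL libraries (naive replicate 3, dpi 2 replicate 3, dpi 10 replicate 2, and dpi 42 replicates 1 and 2) and to 945 to 2551 CPM in the other 7. The 4 Schwann cell markers summed to 634 CPM in OL naive replicate 3 and to 1.73 CPM or less in the other naive OL libraries, and after SCI to 206 to 1519 CPM. The 8 myeloid markers rose in every comparison with naive. Both dpi 2 libraries of replicate 2 carried Y-linked counts, 2414 and 2604, against 0 to 13 in the others. These counts conflict with the female sex stated for that pool, and their source was not tested. In addition, 2 dpi 42 libraries have a title and a description that disagree and were placed by the description, which matches the column names. Without these 2 libraries the dpi 42 rises in OL libraries of Nqo1 (0.47, q = 0.054) and Gsr (0.39, q = 0.107), the dpi 42 differential enrichment of Gpx1 (1.20, q = 0.238), the dpi 10 rise of Txnrd1 (0.32, q = 0.0526) and the fall of Gsr from dpi 2 to dpi 42 (-0.47, q = 0.0756) were not called.

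Each of the 10 genes is shown by library in the plot of member levels, and the following paragraphs take them by role.

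**Figure D1:**
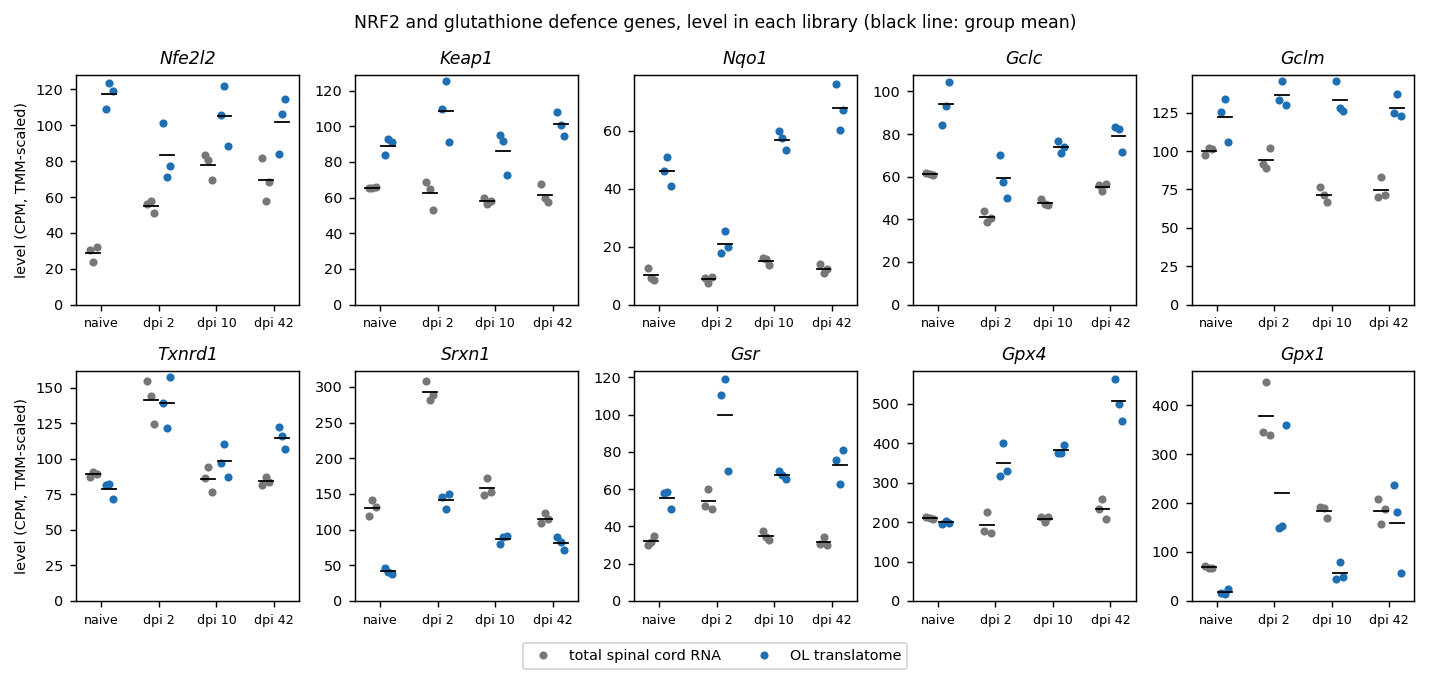
Level of each of the 10 genes (CPM, linear axis from 0, its own scale for each gene) in the 12 OL and 12 total RNA libraries, by time group; each point is a library and the black lines are group means. Gpx1 in OL libraries runs from 15 to 23.9 CPM in naive mice and from 45.8 to 360.3 CPM after SCI, Gpx4 is above its naive level in every injured OL library while its total RNA groups overlap, and Nfe2l2 in total RNA moves up towards its level in OL libraries.

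Across the 10 genes, SCI was followed by more rises than falls in the OL translatome. At dpi 2, Txnrd1, Srxn1, Gsr, Gpx4 and Gpx1 rose (5 of 10; 18.4% of all tested genes rose) and Nfe2l2, Nqo1 and Gclc fell (3 of 10; 20% of all genes fell). At dpi 10, Txnrd1, Srxn1, Gpx4 and Gpx1 rose (9.62% of all genes) and Gclc fell (8.59% of all genes). At dpi 42 these 4, Nqo1 and Gsr rose (6 of 10; 16.2% of all genes) and none fell by edgeR (16.9% of all genes). By edgeR 1 of the 10, Gclc, was lower at an unadjusted p under 0.05, and DESeq2 called none. The median change of the 10 was 0.55, 0.30 and 0.48 on the log2 scale at dpi 2, 10 and 42, against 0 over all genes at each time. The 3 times share the same naive libraries, here and in total RNA. All q values are Benjamini-Hochberg adjusted over the 17167 tested genes, from the edgeR quasi-likelihood test, with a call at q under 0.05. Changes are given with their standard error (SE). With pools of mice as replicates and 3 libraries per group, fewer cells of a type and less RNA per cell cannot be told apart.

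In total spinal cord RNA, Nfe2l2, Txnrd1, Srxn1, Gsr and Gpx1 rose at dpi 2 (5 of 10; 16.4% of all genes) and Gclc fell (20.8% of all genes). At dpi 10, Nfe2l2, Nqo1, Srxn1 and Gpx1 rose (13.9%) and Gclc and Gclm fell (18.2%). At dpi 42 Nfe2l2 and Gpx1 rose (10.4%) and Gclm fell (12.1%). The median change of the 10 was 0.30, 0.05 and -0.05, against -0.10, -0.10 and -0.08 over all genes. The share of the 10 genes called in either direction at dpi 42 was 6 of 10 in the OL translatome (33.1% of all genes) and 3 of 10 in total RNA (22.5%).

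**Figure D2:**
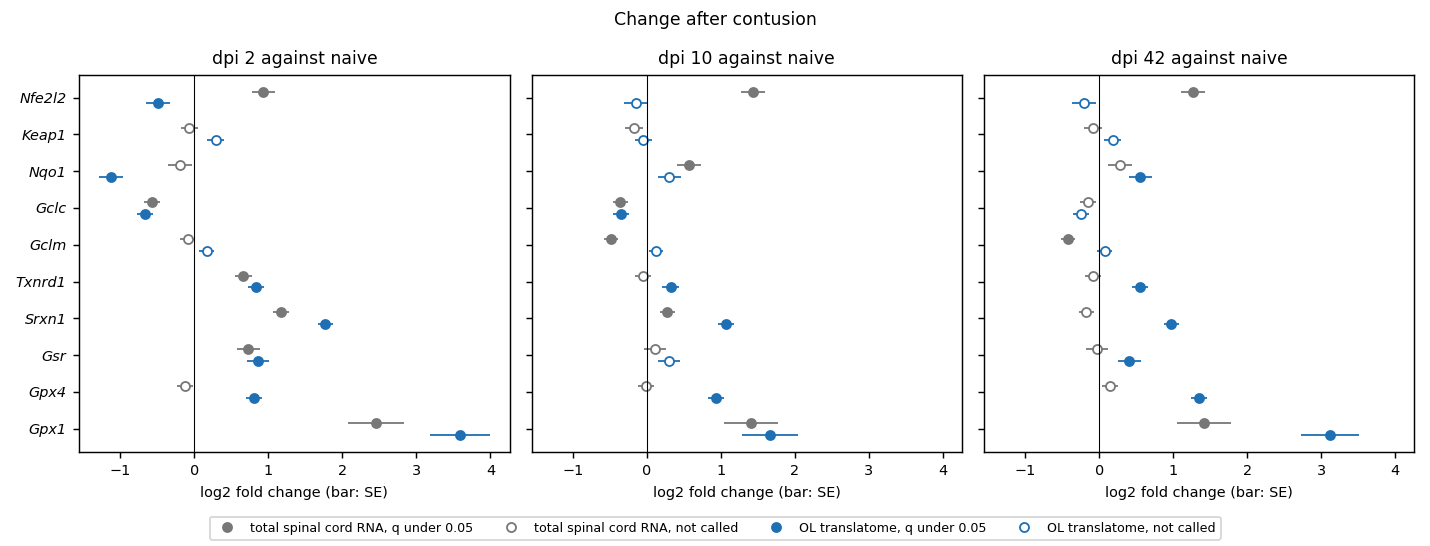
Log2 change against naive with its SE for each of the 10 genes at dpi 2, 10 and 42, in the OL translatome and in total RNA. Filled points passed q under 0.05. Gpx1 has the largest change in both kinds of RNA at dpi 2 (3.59 and 2.45), Nfe2l2 lies right of 0 in total RNA and left of 0 in OL libraries at each time, and Gpx4 lies right of 0 in OL libraries and near 0 in total RNA.

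Nfe2l2 (chr2:75675513-75704641, minus strand) was an OL-enriched mRNA in the naive cord and lost most of that enrichment after SCI, as its level in total RNA rose and that in the OL translatome did not. In naive mice it was at 109, 123 and 119 CPM in OL libraries and at 30.4, 24 and 32.3 CPM in total RNA. Every OL library was thus above every total RNA library, by 4.06-fold (log2 2.02 ± 0.16 SE, q = 7.63e-10). In total RNA it then stood at 55.9, 58.0 and 51.2 CPM at dpi 2, at 83.3, 80.9 and 69.5 CPM at dpi 10, and at 81.6, 58.0 and 68.2 CPM at dpi 42. All 9 injured libraries were above the 3 naive ones, and the rise was 1.91-fold (q = 8.33e-05), 2.70-fold (q = 8.71e-07) and 2.40-fold (q = 8.01e-06). OL libraries held 101, 71.2 and 77.2 CPM at dpi 2, 106, 122 and 88.4 CPM at dpi 10 and 84.2, 106 and 115 CPM at dpi 42. The dpi 2 libraries were all below the naive ones, and the later groups overlapped them. The fall at dpi 2 was 0.49 ± 0.16 on the log2 scale (q = 0.0165), and the later values of -0.15 (q = 0.573) and -0.21 (q = 0.343) did not pass the test.

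The difference between both kinds of change (differential OL enrichment, the change in OL libraries minus that in total RNA) was -1.42 ± 0.22 (q = 0.000194), -1.58 (q = 0.000123) and -1.47 (q = 0.000465) for Nfe2l2 at dpi 2, 10 and 42, and stayed called under every alternative tried. The OL enrichment at those times was 0.60, 0.44 and 0.55 on the log2 scale. The 8 myeloid markers, all called higher, rose in total RNA with Nfe2l2, from a summed 213 to 261 CPM in naive mice to 1586 to 1954 CPM at dpi 2, 4098 to 5530 CPM at dpi 10 and 2467 to 3609 CPM at dpi 42, with no marker at 0. The summed fibroblast markers in total RNA also rose, from 63.4 to 86.0 CPM in naive mice to 1675 to 1854 CPM at dpi 10. The summed neuron markers fell there, from 7274 to 7707 CPM to 3135 to 3590 CPM. The part of any of these cells in the result was not tested. The fall in OL libraries at dpi 2 missed the threshold without OL dpi 2 replicate 2 (-0.45, q = 0.0567), without both libraries of tissue pool 2, which carry the Y-linked counts (-0.39, q = 0.0933), with only the groups compared (-0.43, q = 0.0839) and with library sizes alone (-0.33, q = 0.11). The enrichment at dpi 10 missed it without OL dpi 10 replicate 2 (0.36, q = 0.0982) or total dpi 10 replicate 3 (0.36, q = 0.0992), and that at dpi 2 without OL dpi 2 replicate 1 (0.37, q = 0.0737).

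Keap1 (chr9:21229730-21239361, minus strand), which encodes the inhibitor of NRF2, moved little. It lay between 53.1 and 68.9 CPM in the 12 total RNA libraries and between 72.8 and 125 CPM in the 12 OL libraries. No OL library was below a total RNA library. None of its 6 changes against naive passed the test. The nearest was 0.29 ± 0.12 at dpi 2 in OL libraries (q = 0.063), which passed with DESeq2 (0.33, q = 0.0244) and without OL dpi 2 replicate 3 (0.34, q = 0.025) or total dpi 2 replicate 3 (0.29, q = 0.0479). Keap1 was enriched in OL libraries in every group, by 0.45, 0.80, 0.58 and 0.72 on the log2 scale in naive, dpi 2, dpi 10 and dpi 42 mice, the highest q of the 4 being 0.00289. The transcript overlaps 510 bases of an antisense gene, Gm16754, and whether counting used the strand is not given in the sources used here.

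Nqo1 (chr8:107388225-107403206, minus strand), the quinone reductase that is a textbook NRF2 target, had the highest OL enrichment value of the 10 in every group, and its level in OL libraries went down and then up. It was at 46.1, 51.0 and 40.9 CPM in naive OL libraries, at 17.9, 25.4 and 19.7 CPM at dpi 2, at 59.9, 57.3 and 53.2 CPM at dpi 10 and at 75.9, 60.1 and 67.1 CPM at dpi 42. The dpi 2 libraries were all below the naive ones and the later libraries all above them. The fall at dpi 2 was 2.19-fold (log2 -1.13 ± 0.16, q = 9.83e-06), dpi 10 did not pass (0.30, q = 0.207) and dpi 42 was 1.47-fold above naive (0.56 ± 0.16, q = 0.00972). Between dpi 2 and dpi 42 the level in OL libraries rose 3.23-fold (log2 1.69 ± 0.16, q = 4.93e-07). In total RNA the levels were 12.6, 9.25 and 8.62 CPM in naive mice, 9.32, 7.60 and 9.64 CPM at dpi 2, 16, 15.6 and 13.8 CPM at dpi 10 and 14, 10.8 and 12.2 CPM at dpi 42. The dpi 10 group alone, with every library above naive, passed the test (0.58 ± 0.16, q = 0.00895). OL enrichment of Nqo1 was 4.53-fold in naive mice, 2.37-fold at dpi 2, 3.75-fold at dpi 10 and 5.50-fold at dpi 42. Its drop at dpi 2 passed as a differential enrichment of -0.94 ± 0.23 (q = 0.00796). The rise at dpi 42 rests on few libraries: it missed the threshold without OL naive replicate 3 (0.42, q = 0.067) or OL dpi 42 replicate 1 (0.43, q = 0.079). An offset for gene length and GC content turned it to -0.13 (q = 0.659). Without the 5 OL libraries high in astrocyte markers, which leaves 1 OL dpi 42 library, it was 0.45. The rise in total RNA at dpi 10 missed the threshold without total naive replicate 3 (0.47, q = 0.0599) and with the length and GC offset (0.25, q = 0.33).

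Both subunits of glutamate-cysteine ligase, the first and limiting step of glutathione synthesis, had no called rise against naive, with an exception for Gclm under other settings. Gclc (chr9:77754535-77794485, plus strand), the catalytic subunit, was at 84.3, 93.4 and 105 CPM in naive OL libraries, at 70.2, 57.7 and 50.2 CPM at dpi 2, at 76.8, 71.0 and 73.8 CPM at dpi 10 and at 83.3, 82.4 and 71.6 CPM at dpi 42. Total RNA libraries stood at 61.6, 61.1 and 60.6 CPM in naive mice, then at 44.1, 38.8 and 40.6 CPM, at 49.4, 47.0 and 46.8 CPM, and at 55.9, 53.2 and 56.5 CPM. In both kinds of RNA every injured library was below every naive one, lowest at dpi 2. The fall at dpi 2 was 0.66 ± 0.11 in OL libraries (q = 4.06e-05) and 0.57 ± 0.11 in total RNA (q = 0.000229), and at dpi 10 it was 0.35 (q = 0.0262) and 0.36 (q = 0.0135), all on the log2 scale. At dpi 42 the values of -0.25 (q = 0.0779) and -0.15 (q = 0.359) did not pass. The one in OL libraries passed when any 1 of 9 OL libraries was left out (-0.38 to -0.31, q = 0.0105 to 0.0478). Of these, the OL dpi 2 and dpi 10 libraries are not in this comparison and each gave -0.31. The dpi 42 value in OL libraries also passed with the length and GC offset (-0.43, q = 0.00616) and with a total RNA library as TMM reference (-0.38, q = 0.00766). No difference between both kinds passed for Gclc (-0.10, 0.01 and -0.10, each with SE 0.15), although without OL dpi 2 replicate 1 the first was -0.46 and called (q = 0.026). The dpi 10 fall in OL libraries was lost without any of OL naive replicates 2 and 3 and OL dpi 10 replicates 2 and 3 (-0.36 to -0.27, q = 0.0602 to 0.111). Its value was -0.24 without the 5 OL libraries high in astrocyte markers. The dpi 10 fall in total RNA was lost without any of the 12 OL libraries but none of the total RNA libraries (-0.24, q = 0.051 to 0.121). The OL libraries are not in that comparison. A total RNA library as TMM reference gave -0.20 (q = 0.17), so the call depends on the scaling.

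Gclm (chr3:122245557-122270732, plus strand), the modifier subunit, behaved differently in both kinds of RNA at the later times. OL libraries lay between 106 and 146 CPM in all 4 groups, which overlapped. They gave changes of 0.16, 0.13 and 0.07 that did not pass (q = 0.208, 0.425 and 0.641). With library sizes alone these became called rises of 0.33, 0.24 and 0.22, and with the length and GC offset they were called at dpi 2 (0.37, q = 0.0132) and dpi 42 (0.32, q = 0.0369). Total RNA libraries were at 97.6, 102 and 102 CPM in naive mice, at 91.4, 88.9 and 102 CPM at dpi 2, at 76.6, 71.4 and 66.8 CPM at dpi 10 and at 70.4, 82.8 and 71.5 CPM at dpi 42. The dpi 10 and dpi 42 libraries were all below the naive ones, by 0.49 ± 0.10 (q = 0.00061) and 0.42 ± 0.10 (q = 0.0035) on the log2 scale. The difference between both kinds was 0.61 ± 0.14 at dpi 10 (q = 0.00878) and 0.49 ± 0.14 at dpi 42 (q = 0.0318). The first was lost without OL naive replicate 3 (0.40, q = 0.0751) or OL dpi 10 replicate 1 (0.43, q = 0.0917). The second was lost without any of 16 libraries (0.25 to 0.49, q = 0.0686 to 0.254). These include the OL dpi 2 and dpi 10 libraries, which are not in this comparison and each gave 0.34. With a total RNA library as TMM reference it was 0.25 (q = 0.302), so the call depends on the scaling. Without the 5 OL libraries high in astrocyte markers, which leaves 1 OL dpi 42 library, the dpi 42 difference was 0.23. A pseudogene, Gm6061, overlaps 244 bases of Gclm on the same strand.

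Txnrd1 (chr10:82833951-82897712, plus strand), cytosolic thioredoxin reductase, rose at dpi 2 in both kinds of RNA. Its OL libraries were at 81.7, 82.4 and 71.6 CPM in naive mice, at 139, 122 and 157 CPM at dpi 2, at 97.3, 110.2 and 87.2 CPM at dpi 10 and at 122, 116 and 107 CPM at dpi 42. The total RNA level went from 87.3, 90.6 and 89.6 CPM to 155, 144 and 125 CPM at dpi 2, and then stood at 86.2, 94.5 and 76.5 CPM and at 81.7, 87.2 and 83.8 CPM. All dpi 2 libraries were above the naive ones in both, and in OL libraries all later libraries were too. The rise at dpi 2 was 1.78-fold in OL libraries (log2 0.83 ± 0.11, q = 4.83e-06) and 1.58-fold in total RNA (0.66 ± 0.11, q = 6.55e-05). In OL libraries it was 0.32 at dpi 10 (q = 0.0478) and 0.55 at dpi 42 (q = 0.00065), and in total RNA -0.06 (q = 0.755) and -0.08 (q = 0.659). The dpi 10 call was lost without any of 15 libraries (0.23 to 0.35, q = 0.0512 to 0.221). Among them, total RNA libraries, OL dpi 2 replicate 1 and OL dpi 42 replicate 2 are not in this comparison. Each of these gave 0.32. Without the 5 OL libraries high in astrocyte markers the dpi 10 value was 0.17. The difference between both kinds at dpi 42 (0.63 ± 0.16, q = 0.0156) was lost without any of 9 OL libraries (0.41 to 0.51, q = 0.0561 to 0.129). These include OL dpi 2 and dpi 10 libraries, which are not in this comparison and each gave 0.47. Without the 5 OL libraries high in astrocyte markers, which leaves 1 OL dpi 42 library, this difference was 0.34 and the dpi 42 rise 0.36.

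Srxn1 (chr2:152105516-152111376, plus strand), sulfiredoxin, which repairs over-oxidised peroxiredoxins and whose promoter held the most motif matches above, rose in both kinds of RNA and stayed high longer in the OL translatome. The OL libraries were at 46.3, 40.7 and 37.5 CPM in naive mice, at 146, 129 and 150.2 CPM at dpi 2, at 80.5, 89.8 and 90.9 CPM at dpi 10 and at 89.5, 83.1 and 71.8 CPM at dpi 42. Every injured OL library was above every naive one, with the highest levels at dpi 2. The rise was 3.41-fold at dpi 2 (log2 1.77 ± 0.11, q = 1.19e-10), 2.10-fold at dpi 10 (1.07 ± 0.10, q = 3.42e-07) and 1.96-fold at dpi 42 (0.97 ± 0.10, q = 8.58e-07). It was called under every alternative tried. The total RNA libraries were at 119, 141 and 131 CPM in naive mice, at 309, 282 and 289 CPM at dpi 2, at 149, 172 and 153 CPM at dpi 10 and at 109, 123 and 114 CPM at dpi 42. There the dpi 2 and dpi 10 libraries were all above naive and the dpi 42 libraries overlapped them. The changes were 2.25-fold (q = 2.92e-08), 1.21-fold (q = 0.0419) and 0.885-fold (q = 0.243). With the length and GC offset the dpi 42 value was a called fall (-0.48, q = 0.00325) and the dpi 10 value was -0.0032 (q = 0.999).

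Srxn1 was depleted from OL libraries in every group, but less so after SCI: OL enrichment was -1.65, -1.05, -0.86 and -0.50 on the log2 scale in naive, dpi 2, dpi 10 and dpi 42 mice (the highest q being 0.000294). The difference between both kinds of change was 0.60 ± 0.15 (q = 0.0074), 0.79 ± 0.15 (q = 0.00166) and 1.15 ± 0.15 (q = 8.21e-05) at dpi 2, 10 and 42. The one at dpi 2 was lost without any of 10 OL libraries (0.32 to 0.39, q = 0.0612 to 0.15). Among these are the OL dpi 10 and dpi 42 libraries, which are not in this comparison. The dpi 2 difference stood at 0.39 without any of them. It was 0.28 (q = 0.202) without the 5 OL libraries high in astrocyte markers and 0.35 (q = 0.123) with a total RNA library as TMM reference. In those settings the median over all genes was also lower, at -0.14 and -0.17, against 0.06 with DESeq2 size factors. Leaving out those 5 libraries also removes OL naive and OL dpi 2 libraries of this comparison. The part of scaling in the drop was not tested. The small rise in total RNA at dpi 10 was lost without total naive replicate 1 or 3 or total dpi 10 replicate 2 or 3 (0.21 to 0.30, q = 0.0637 to 0.19).

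Gsr (chr8:33652523-33698163, plus strand), glutathione reductase, rose at dpi 2 and then returned towards naive in total RNA. Levels in OL libraries were 57.8, 58.4 and 49.2 CPM in naive mice, 110.5, 119 and 69.8 CPM at dpi 2, 69.5, 67.5 and 65.7 CPM at dpi 10 and 75.4, 62.8 and 81.1 CPM at dpi 42. All injured libraries were above the naive ones. Replicate 3 of dpi 2 stood well below the other 2 of its group. Levels in total RNA were 30.2, 31.8 and 34.9 CPM in naive mice, 50.8, 60.1 and 49.6 CPM at dpi 2, 37.7, 34.3 and 32.8 CPM at dpi 10 and 30.4, 34.5 and 30.2 CPM at dpi 42. Only the dpi 2 libraries were clear of naive. The rise at dpi 2 was 1.81-fold in OL libraries (log2 0.86 ± 0.15, q = 0.000103) and 1.66-fold in total RNA (0.73 ± 0.15, q = 0.000559), the latter falling to 0.45 (q = 0.065) with the length and GC offset. OL libraries gave 0.29 at dpi 10 (q = 0.194) and 0.41 at dpi 42 (q = 0.0401). That last call was lost without any of 10 OL libraries (0.25 to 0.39, q = 0.0642 to 0.265). These include OL dpi 2 and dpi 10 libraries, which are not in this comparison and each gave 0.35. With the length and GC offset the dpi 42 value turned to -0.01. Gsr was OL-enriched in each group (0.77, 0.90, 0.95 and 1.21 on the log2 scale, highest q 0.000153), and no differential enrichment passed.

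Gpx4 (chr10:80047166-80056439, plus strand), the peroxidase that reduces lipid hydroperoxides in membranes, rose at each time in the OL translatome. In the fit of all groups it had no called change in total RNA. Its OL level was at 196, 203 and 198 CPM in naive mice, at 316, 401 and 329.8 CPM at dpi 2, at 375, 375 and 395 CPM at dpi 10 and at 564, 499 and 457 CPM at dpi 42. Every injured OL library was above every naive one, and all dpi 42 libraries were above all earlier ones. In total RNA it was at 213, 209 and 209 CPM in naive mice, at 178, 225 and 173 CPM at dpi 2, at 212, 201 and 212 CPM at dpi 10 and at 234, 259 and 208 CPM at dpi 42. These groups overlapped naive at each time. The rise in OL libraries was 1.75-fold (log2 0.81 ± 0.11, q = 4.86e-06), 1.91-fold (0.94 ± 0.11, q = 3.32e-06) and 2.54-fold (1.34 ± 0.11, q = 2.85e-08), against -0.13 (q = 0.37), -0.02 (q = 0.943) and 0.15 (q = 0.351) in total RNA. From dpi 2 to dpi 42 the level in OL libraries rose by a further 1.45-fold (q = 0.00149).

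The differential enrichment of Gpx4 was 0.94 ± 0.15 (q = 0.000288), 0.95 ± 0.15 (q = 0.000449) and 1.19 ± 0.15 (q = 9.34e-05), and passed under every alternative tried. OL enrichment was -0.08 (q = 0.568) in naive mice and 0.86, 0.87 and 1.12 after SCI (highest q 8.71e-07). With the length and GC offset the naive value was 0.68 and called (q = 4.72e-05), and with library sizes alone it was -0.59 and called (q = 6.69e-05). Whether Gpx4 was OL-enriched or depleted before SCI thus depends on the setting. Without the 5 OL libraries high in astrocyte markers the rises in OL libraries were 0.78, 0.95 and 1.18, close to those with them. With an offset for gene length and GC content (Gpx4 has 1724 exon bases, merged over its transcripts) they were 0.10 (q = 0.592), 0.35 (q = 0.0451) and 0.51 (q = 0.00348). The changes in total RNA were then -0.50 (q = 0.0027), -0.35 (q = 0.0325) and -0.25 (q = 0.153). The calls of the single changes of Gpx4 thus depend on that offset, whereas the difference between both kinds stayed above 0 (0.60 to 0.76, q = 0.0134 to 0.0267).

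Gpx1 (chr9:108338903-108340343, plus strand), the abundant cytosolic glutathione peroxidase, had the largest change of the 10 in OL libraries at each time and in total RNA at dpi 2 and 42. In total RNA at dpi 10 it was next to Nfe2l2. In total RNA it was at 72.0, 67.6 and 67.8 CPM in naive mice, at 345, 448 and 339.8 CPM at dpi 2, at 191, 189 and 169.5 CPM at dpi 10 and at 207, 158 and 187 CPM at dpi 42. In OL libraries it was at 16.1, 15 and 23.9 CPM in naive mice, at 149.9, 154 and 360.3 CPM at dpi 2, at 45.8, 79.1 and 49.5 CPM at dpi 10 and at 237, 183 and 57.7 CPM at dpi 42. Every injured library was above every naive one in both kinds, and the OL groups were spread far more widely (SD 120 CPM at dpi 2 and 91.9 CPM at dpi 42, around means of 221 and 159 CPM). The rise in total RNA was 5.46-fold (log2 2.45 ± 0.38, q = 2.86e-05), 2.65-fold (q = 0.00525) and 2.66-fold (q = 0.00794). In OL libraries it was 12.1-fold (log2 3.59 ± 0.40, q = 4.95e-07), 3.17-fold (1.66 ± 0.38, q = 0.00357) and 8.67-fold (3.12 ± 0.40, q = 5.8e-06).

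In each of the 4 groups, the OL libraries with high astrocyte markers had more Gpx1 than the others: 23.9 CPM in naive replicate 3, 360.3 CPM in dpi 2 replicate 3, 79.1 CPM in dpi 10 replicate 2, and 237 and 183 CPM in dpi 42 replicates 1 and 2. These 5 libraries were chosen by a summed level of the 6 astrocyte markers over 6000 CPM, so their higher marker levels follow from that choice. They hold 2713 to 9632 CPM of Gfap, against 495 to 1956 CPM in the other 7. In total RNA the 6 markers summed to 4798 to 7879 CPM over all 12 libraries. The 4 markers of OL precursor cells were also higher in the same 5 OL libraries, at a summed 49.6 to 118 CPM against 20.3 to 34.4 CPM in the other 7. The part of either cell type in the level of Gpx1 was not tested. Without the 5 libraries the rise of Gpx1 in the OL translatome was 3.23 ± 0.15 at dpi 2 (q = 4.18e-12), 1.62 ± 0.15 at dpi 10 (q = 9.82e-08) and 1.88 ± 0.17 at dpi 42 (q = 1.44e-07). It was thus close to the full value at dpi 2 and 10 and smaller at dpi 42, where 1 OL library is left and is assumed to vary as the other groups do. This setting was chosen after the levels had been seen.

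**Figure D3:**
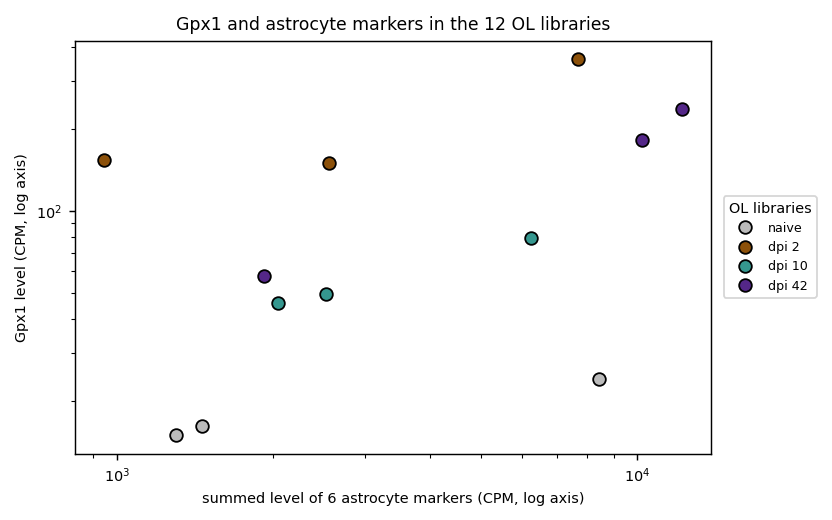
Gpx1 level (CPM, log axis) against the summed level of 6 astrocyte markers (CPM, log axis) in the 12 OL libraries, coloured by time group. Within each group the libraries on the right, at 6259 to 12188 CPM of markers, are the highest in Gpx1.

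Gpx1 was depleted from OL libraries in naive mice (-1.91 ± 0.38, q = 0.000182) and at dpi 10 (-1.66 ± 0.37, q = 0.000713), and did not pass at dpi 2 (-0.77, q = 0.0783) or dpi 42 (-0.21, q = 0.658). Without the 5 libraries it was depleted in all groups, by -1.99, -1.37, -1.90 and -1.63 on the log2 scale. The one differential enrichment that passed, at dpi 42 (1.70 ± 0.52, q = 0.0475), was 0.36 (q = 0.32) without them. It was lost without any of 21 single libraries (1.14 to 1.80, q = 0.0524 to 0.212), and gave q = 0.105 with tissue pools as a block. The 21 include dpi 2 and dpi 10 libraries, which are not in this comparison and gave 1.53 or 1.70. The 8 myeloid markers rose in OL libraries as well, from a summed 14 to 20.5 CPM in naive mice to 90.1 to 120 CPM at dpi 2, 251 to 296 CPM at dpi 10 and 176 to 304 CPM at dpi 42, with none at 0. They were depleted from OL libraries in each group (8 of 8). Their part in the rise of Gpx1 was not tested.

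In OL enrichment, 6 of the 10 genes were called higher in OL libraries than in total RNA in naive mice (24.9% of all genes) and Srxn1 and Gpx1 lower (30.5%). At dpi 2, 7 were higher (24.8%) and 1 lower (28.8%). At dpi 10, 7 were higher (25.2%) and 2 lower (28.8%), and at dpi 42, 8 were higher (24.9%) and 1 lower (28.9%). Nqo1, Keap1, Gclc, Gclm, Gsr and Nfe2l2 were higher in all 4 groups, and these calls depend on the scaling. With library sizes alone the median of all genes moves to between -0.80 and -0.69, and the values become -0.06, 0.12 and -0.24 for Keap1, Gclc and Gclm in naive mice and 0.03, -0.14 and 0.05 for Nfe2l2 at dpi 2, 10 and 42. Nqo1 and Srxn1 kept their calls in every group under every scaling. The medians of the 10 were 0.36, 0.57, 0.60 and 0.63, against -0.27, -0.19, -0.22 and -0.18 over all genes.

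**Figure D4:**
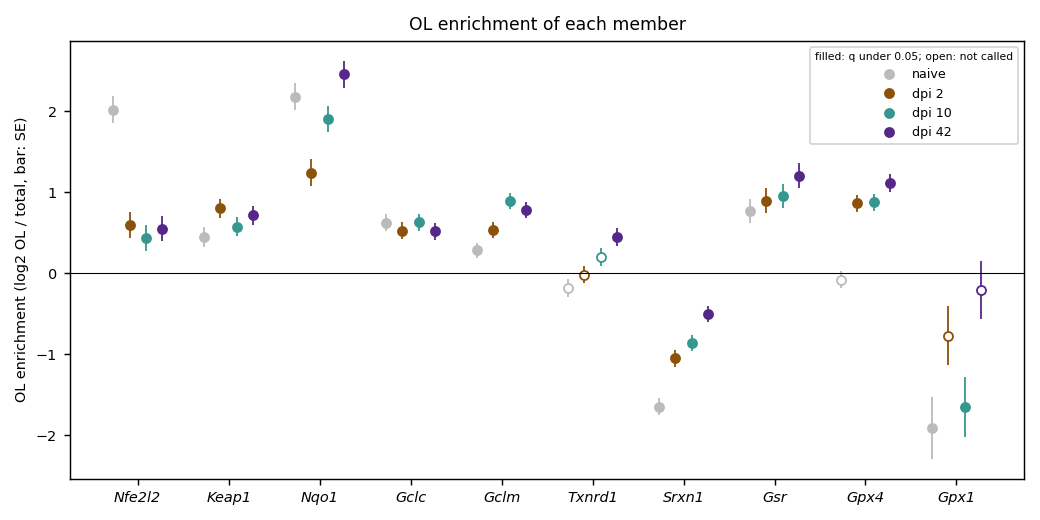
OL enrichment (log2 of OL over total RNA) with its SE for the 10 genes in naive, dpi 2, dpi 10 and dpi 42 mice; filled points passed q under 0.05. Nfe2l2 drops from 2.02 to between 0.44 and 0.60 after SCI, Gpx4 moves from -0.08 to between 0.86 and 1.12, and Srxn1 climbs from -1.65 to -0.50.

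In differential OL enrichment, Srxn1 and Gpx4 were higher at dpi 2 (2 of 10; 8.06% of all genes) and Nfe2l2 and Nqo1 lower (6.03%). At dpi 10, 3 were higher (4.57%) and Nfe2l2 lower (3.09%), and at dpi 42, 5 were higher (4.37%) and Nfe2l2 lower (3.47%). The members that passed at all 3 times were Nfe2l2, Srxn1 and Gpx4. Keap1, Gclc and Gsr passed at none, with values between -0.10 and 0.43.

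Between dpi 2 and dpi 42, Nqo1, Gclc and Gpx4 rose in OL libraries (3 of 10; 8.91% of all genes) while Srxn1 (-0.80 ± 0.10, q = 1.61e-05) and Gsr (-0.45, q = 0.0417, groups overlapping) fell (8.66%). In total RNA, Gclc rose (0.42, q = 0.0131; 5.17% of all genes) and Gclm, Gsr, Srxn1 and Txnrd1 fell (5.59%), Srxn1 by 1.35 and Txnrd1 by 0.74 on the log2 scale. Gpx1 in total RNA was lower at dpi 42 than at dpi 2 in every library. Its change missed the threshold in the fit of all groups (-1.04, q = 0.0731). It was called with only the groups compared (-1.09, q = 3e-05), with DESeq2 (-1.03, q = 0.0242), with the length and GC offset (-1.0, q = 0.0444), without the 5 OL libraries high in astrocyte markers (-1.09, q = 8.52e-07) and when any 1 of 5 OL libraries was left out. Without the 5 libraries high in astrocyte markers, the rises of Gclc and Gpx4 in OL libraries were 0.21 and 0.40. That setting leaves 1 OL dpi 42 library. The fall of Gsr was lost without any of 11 libraries (-0.45 to -0.30, q = 0.0513 to 0.229). These include naive and dpi 10 libraries, which are not in this comparison and gave -0.44 or -0.45. In total RNA, the rise of Gclc was lost without total dpi 2 replicate 2 (0.38, q = 0.0749) and the fall of Gclm without any of 5 total RNA libraries (-0.37 to -0.27, q = 0.0559 to 0.14).

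Levels per kilobase of exon, with exons merged over all transcripts of a gene, allow a rough comparison of genes. Gpx4 had the highest such level of the 10 in OL libraries in each group, at 116, 203, 221 and 294 CPM per kb in naive, dpi 2, dpi 10 and dpi 42 mice. In total RNA, Gpx4 (122 CPM per kb in naive mice) and Gpx1 (48.0 CPM per kb) led and changed places at dpi 2, when Gpx1 stood at 262 and Gpx4 at 111 CPM per kb. Srxn1 came next in total RNA in each group (46.2, 104, 56.0 and 40.9 CPM per kb). Nqo1 was lowest in total RNA in each group (5.70 to 9.75 CPM per kb), and in OL libraries it moved from 29.6 CPM per kb in naive mice, next after Gpx4 and Nfe2l2 (30.9 CPM per kb, a difference within the spread of the replicates), to the lowest place at dpi 2 (13.5) and back to rank 3 at dpi 10 (36.6) and dpi 42 (43.6). In naive OL libraries Gpx1 (12.7) and Txnrd1 (11.1 CPM per kb) were lowest, and Keap1, Gclm and Gsr, at 19, 19.4 and 20 CPM per kb, did not differ beyond their spread.

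Over the 12 OL libraries, the levels of Txnrd1 and Srxn1 went together (Pearson r = 0.90 on log2 CPM) as they did over the 12 total RNA libraries (r = 0.92), and Srxn1 and Gsr did so more closely in total RNA (0.93) than in OL libraries (0.76). Gclc ran opposite to Srxn1 in both (-0.86 and -0.87). In OL libraries Nfe2l2 ran opposite to Srxn1 (-0.70) and Txnrd1 (-0.59) and with Gclc (0.70) and Nqo1 (0.44). Over all 24 libraries, the gene closest to each member in log2 CPM was Arap1 for Nfe2l2 (0.95), Aamp for Keap1 (0.96), Efs for Nqo1 (0.97), Gprc5b for Gclc (0.95), Stx12 for Gclm (0.95), Mrps6 for Txnrd1 (0.90), Jpt1 for Srxn1 (0.95), Btf3 for Gsr (0.97), S100a1 for Gpx4 (0.91) and Tm4sf1 for Gpx1 (0.98). These correlations describe libraries that share groups, depth and the OL to total RNA contrast, so they carry no test.

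The wider pathway was described by 6 gene lists, chosen like the 10 members with earlier results of these data known. Their counts stand beside shares over all tested genes of 18.4, 9.62 and 16.2% that rose and 20, 8.59 and 16.9% that fell in OL libraries at dpi 2, 10 and 42. In total RNA the shares were 16.4, 13.9 and 10.4% that rose and 20.8, 18.2 and 12.1% that fell. Of 9 partners and regulators of NRF2, 4 rose and 3 fell in OL libraries at dpi 2 (18.4% and 20% of all genes), 1 rose and 1 fell at dpi 10 (9.62% and 8.59%), and 3 rose and 1 fell at dpi 42 (medians 0.00, 0.09 and 0.22). In total RNA, 2 rose and 4 fell, 3 rose and 5 fell, and 1 rose and 3 fell (medians -0.12, -0.28 and -0.13). Maff, a small MAF protein that pairs with NRF2 on the ARE, rose in OL libraries from 0.524 ± 0.236 CPM (SD, n = 3) to 13.9 ± 1.62 CPM at dpi 2 (log2 4.72 ± 0.47 SE, q = 1.11e-07) and in total RNA by 2.92 (q = 1.1e-05). Cul3, the scaffold of the ligase that KEAP1 feeds with NRF2, fell in all 6 comparisons (-0.80 to -0.43). Its ring subunit Rbx1 rose in OL libraries at dpi 2 (0.87, q = 7.58e-06) and dpi 42 (0.60, q = 0.000658) but fell in total RNA at dpi 10 (-0.37, q = 0.0205). Btrc, the receptor of the other route that degrades NRF2, fell in total RNA at each time (-1.13, -0.91 and -0.64).

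**Figure D5:**
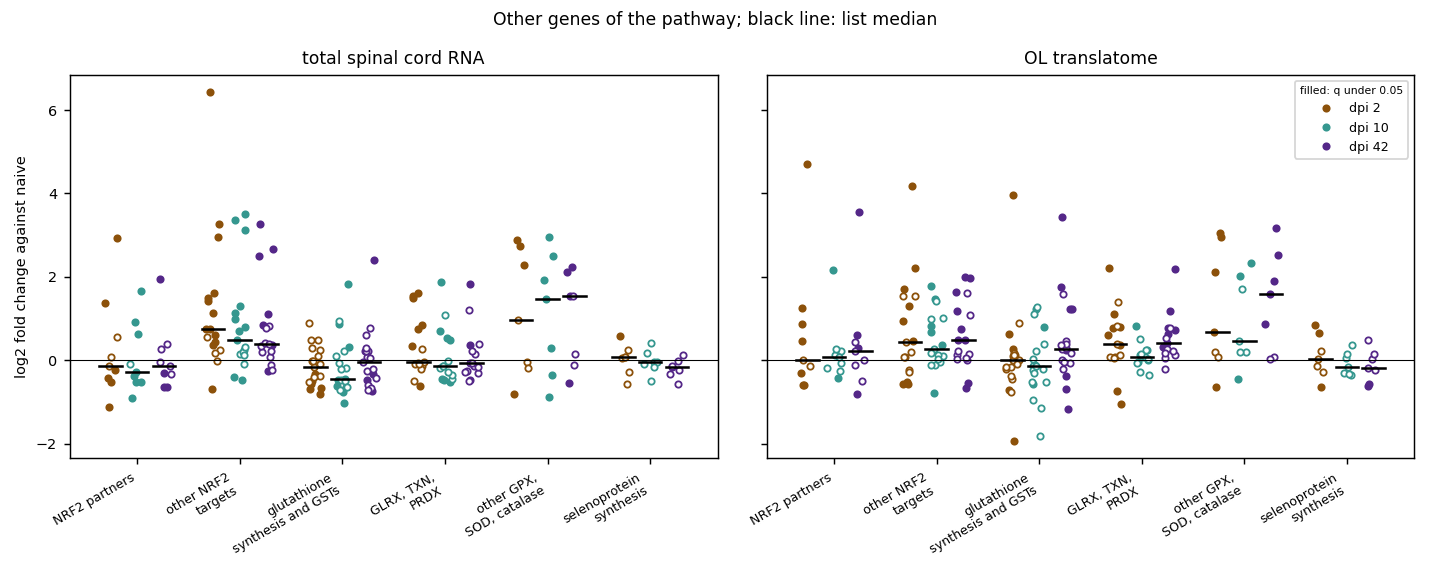
Log2 change against naive of each gene of the 6 lists at dpi 2, 10 and 42, in total RNA and in the OL translatome; each point is a gene, filled at q under 0.05, and black lines are list medians. The other NRF2 targets have 12 of 17 genes higher in total RNA at dpi 2 and 6 of 17 in OL libraries.

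Among 17 other NRF2 targets, 6 rose and 3 fell in OL libraries at dpi 2 (18.4% and 20% of all genes), 5 rose and 1 fell at dpi 10 (9.62% and 8.59%), and 7 rose and 2 fell at dpi 42 (medians 0.44, 0.28 and 0.48). In total RNA, 12 rose and 1 fell at dpi 2, 10 rose and 2 fell at dpi 10, and 6 rose and 1 fell at dpi 42 (medians 0.76, 0.50 and 0.39). Without the 5 OL libraries high in astrocyte markers, 15 of the 17 in place of 9 were called in OL libraries at dpi 2, and 9 in place of 6 at dpi 10. In total RNA at dpi 42 the 7 called became 12 in that setting and with only the groups compared. Hmox1, haem oxygenase 1, rose the most, from 6.36 ± 1.16 to 550.3 ± 110.3 CPM in total RNA at dpi 2 (log2 6.43, q = 3.37e-12) and from 8.88 ± 3.81 to 161 ± 44.9 CPM in OL libraries (4.17, q = 3.26e-10), a difference of -2.26 between both kinds (q = 0.000163). Ftl1, the ferritin light chain that stores iron, rose in OL libraries by 1.70, 1.48 and 1.64 and in total RNA by 3.27, 3.37 and 2.67 at dpi 2, 10 and 42. Ftl1 has near-identical pseudogene copies, between which counting can split reads. Pgd, of the pentose phosphate pathway that supplies NADPH, rose in total RNA (1.5, 0.99 and 0.85) and in OL libraries at dpi 2 (0.47, q = 0.00401). Txn1, thioredoxin, the substrate of TXNRD1, rose in OL libraries by 2.21 (q = 3.58e-09), 0.82 and 1.18, and in total RNA by 1.61 and 0.71 at dpi 2 and 10.

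Of 19 genes of glutathione synthesis, breakdown and transfer, 3 rose and 2 fell in OL libraries at dpi 2 (18.4% and 20% of all genes), 2 rose and 1 fell at dpi 10 (9.62% and 8.59%), and 5 rose and 3 fell at dpi 42 (medians 0.00, -0.14 and 0.27). In total RNA none rose and 6 fell at dpi 2, 3 rose and 6 fell at dpi 10, and 1 rose and 3 fell at dpi 42 (medians -0.15, -0.45 and -0.05), the count of none by edgeR being 0 by DESeq2 as well and 1 at an unadjusted p under 0.05. These counts depend on the setting: in OL libraries the 5 called at dpi 2 became 10 with the length and GC offset and 2 with only the groups compared. The 3 at dpi 10 became 9 with that offset, and the 8 at dpi 42 became 4 with only the groups compared. The latter gave 10, 14 and 9 called in total RNA in place of 6, 9 and 4. Gstp1, a glutathione transferase of OLs, rose in OL libraries from 253 ± 16.9 to 596 ± 41.2 CPM at dpi 10 (log2 1.24, q = 9.62e-08) and 594 ± 78.2 CPM at dpi 42 (1.23, q = 7.88e-08), with 0.32 (q = 0.026) and 0.23 (q = 0.14) in total RNA. Chac1, which breaks glutathione down, rose in OL libraries at dpi 2 from 0.393 ± 0.0864 to 6.24 ± 4.09 CPM (3.97, q = 1.95e-05), and in total RNA was at 8.84 ± 0.915 and 9.46 ± 2.38 CPM (0.10, q = 0.915). Ggt7 fell in total RNA at each time (-0.80, -1.01 and -0.73), as did Gstm5 (-0.57, -0.75 and -0.47).

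Of 15 glutaredoxins, thioredoxins and peroxiredoxins, which share Txn1 and Prdx1 with the list of targets, 6 rose and 2 fell in OL libraries at dpi 2 (18.4% and 20% of all genes), 1 rose at dpi 10 (9.62%) and 7 rose at dpi 42 (16.2%) (medians 0.39, 0.08 and 0.41). None fell at dpi 10 or dpi 42 by edgeR or DESeq2, with 2 and 0 lower at an unadjusted p under 0.05. Without the 5 OL libraries high in astrocyte markers, 5 of the 15 were called at dpi 10. The 7 at dpi 42 became 4 with only the groups compared or with the length and GC offset. In total RNA 6 rose and 1 fell, 4 rose and 3 fell, and 2 rose and 1 fell (medians -0.04, -0.13 and -0.06). Prdx2, a cytosolic peroxiredoxin, rose in OL libraries from 108 ± 23.7 to 232 ± 63.6 CPM at dpi 2 (log2 1.11, q = 7.08e-05) and not in total RNA (0.28, q = 0.261). Prdx1 was at 544 ± 66.3 CPM in naive OL libraries and at 573 ± 21 CPM at dpi 2 (0.08, q = 0.636), while in total RNA it rose from 128 ± 16.3 to 217 ± 29.2 CPM (0.76, q = 9.19e-06). Txnip, the inhibitor of thioredoxin, fell in OL libraries at dpi 2 (-0.72, q = 0.0448) and rose in total RNA at each time (1.5, 1.88 and 1.84), a difference of -2.22 at dpi 2 (q = 0.000665).

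Of 7 other peroxidases, superoxide dismutases and catalase, 4 rose and 1 fell in OL libraries at dpi 2 (18.4% and 20% of all genes), 2 rose and 1 fell at dpi 10 (9.62% and 8.59%) and 5 rose at dpi 42 (16.2%) (medians 0.68, 0.47 and 1.58). With only the groups compared 3, 0 and 2 of them were called by edgeR (4 at dpi 10 at an unadjusted p under 0.05, and 4 by DESeq2), and with the length and GC offset 1 was called at dpi 10. In total RNA 3 rose and 1 fell, 5 rose and 2 fell, and 3 rose and 1 fell (medians 0.98, 1.48 and 1.54). Sod1, the cytosolic dismutase that makes the hydrogen peroxide GPX1 removes, rose in OL libraries at dpi 2 (0.68, q = 1.32e-05) and dpi 42 (0.86, q = 2.22e-06) and had -0.03 (q = 0.851) and -0.12 (q = 0.439) in total RNA. Cat, catalase, fell in OL libraries at dpi 2 from 440.0 ± 20.9 to 283 ± 33.7 CPM (-0.64, q = 5.05e-06). Sod2, the mitochondrial dismutase, fell in total RNA at each time (-0.80, -0.87 and -0.55), and Gpx8 rose in all 6 comparisons (2.03 to 3.17).

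The last list holds the machinery that reads the in-frame TGA codons shown above. Of 7 genes of selenoprotein synthesis, 2 rose and 1 fell in OL libraries at dpi 2 (18.4% and 20% of all genes), none moved at dpi 10 and 2 fell at dpi 42 (16.9% of all genes; medians 0.03, -0.15 and -0.19). In total RNA 1 rose at dpi 2 and none moved later (medians 0.08, -0.05 and -0.15). At an unadjusted p under 0.05, 1 of the 7 was lower in OL libraries at dpi 10 and 2 were lower in total RNA at dpi 42, and DESeq2 called none of these. The counts of called genes depend on the setting. With only the groups compared, 3 were called in total RNA at dpi 10 and 1 in OL libraries at dpi 42. The length and GC offset gave 2 in OL libraries at dpi 10. In total RNA at dpi 2, library sizes alone gave 3 and leaving out tissue pool 2 of dpi 2 gave 0. Eefsec, the elongation factor that brings selenocysteine to the ribosome, fell in OL libraries at dpi 2 (-0.65 ± 0.14, q = 0.00102), and Secisbp2, which binds the element that recodes TGA, fell there at dpi 42 (-0.58 ± 0.14, q = 0.00229), as did Sepsecs (-0.61, q = 0.0167), the enzyme that forms selenocysteine on its tRNA. Trnau1ap, which binds that tRNA, rose at dpi 2 in OL libraries (0.84, q = 0.00414) and in total RNA (0.57, q = 0.0423). At dpi 42, when Secisbp2 and Sepsecs were lower in OL libraries, Gpx4, Gpx1 and Txnrd1 were all higher there than in naive mice.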

How the data were processed

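Polysomal RNA pulled down with an HA antibody (OL translatome) and total RNA from the same spinal cord tissue were sequenced after poly(A) selection in 24 libraries. Per the labels, the authors checked reads with FastQC 0.10.1 and aligned them with STAR to mm10 (GRCm38.p6), and the deposited values are raw counts per gene made with HTSeq 0.10.0. Whether counting used the strand is not given in the sources used here. The authors' own tests used DESeq2.

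From these counts, 17167 of 21965 genes, those reaching 10 counts over the libraries together, were tested, and 1 quasi-likelihood model of 8 group means (edgeR 4.0.16, R 4.3.3, TMM scaling, 16 residual degrees of freedom) gave every comparison, with Benjamini-Hochberg adjustment over all tested genes and a call at q under 0.05. The SE is the log2 change over the square root of F. Symbols, exon lengths and coordinates came from GENCODE M21 (GRCm38), which named 21939 genes. The script was tested on simulated counts with known changes. All levels are relative to the whole library, so a change in the makeup of the tissue can move them. Libraries held 25840127 to 32987841 counts, and a floor of 3 counts is worth 0.0840 to 0.127 CPM.

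The 10 members and all gene lists were chosen with earlier results of these data known. Named list genes were the up to 4 of each list with the smallest p in any change against naive, plus Chac1, which the study discusses. Levels are TMM-scaled CPM computed from the deposited counts, and the closest gene of each member is the one with the highest Pearson r of log2 CPM (prior count 2).

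The OL marker list is given without 1 gene, which is not reported here. The 2 dpi 42 libraries with disagreeing labels follow their description. OL and total RNA libraries of the same tissue pool were paired by the pool number in the column names, which matches the replicate number apart from dpi 42 replicates 1 and 2, and the deviations of these pairs from their group means correlated by 0.0245 to 0.137 up to dpi 10 and by -0.0109 to 0.02 at dpi 42. Across time groups the numbers name different mice. No replicate pair agreed within sampling noise. The alternatives were DESeq2 1.42.0 and its size factors, library sizes alone, TMM with a total RNA library as reference, other filters on low counts, only the groups compared, a replicate block, an offset for length and GC content (mgcv 1.9.3), and leaving libraries out, of which the setting without 5 OL libraries high in astrocyte markers was added after seeing the data.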

Additional observations from a re-analysis of the deposited data

Results flagged for a closer look

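A difference between the change in OL libraries and that in total RNA, tested as an interaction in edgeR (q under 0.05 over all tested genes), singled out 14 values on the log2 scale. At dpi 2 these were Nfe2l2 (-1.42), Nqo1 (-0.94), Srxn1 (0.60) and Gpx4 (0.94). At dpi 10 they were Nfe2l2 (-1.58), Gclm (0.61), Srxn1 (0.79) and Gpx4 (0.95), and at dpi 42 Nfe2l2 (-1.47), Gclm (0.49), Txnrd1 (0.63), Srxn1 (1.15), Gpx4 (1.19) and Gpx1 (1.70). Nfe2l2 and Nqo1 (the latter at dpi 2 only), both with negative values, are the 2 members with the highest OL enrichment in naive mice. Srxn1 and Gpx1, with positive values, are the 2 that were depleted there. The naive enrichment is subtracted in each of these differences, so an inverse relation is partly built in and carries no test. Groups of 3 libraries were too small for a check for single outlying libraries.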

How the results depend on the processing

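The 150 log2 values of the 10 genes (10 in each of 15 comparisons) were recomputed under 36 settings, and 5124 of 5400 kept their direction and their side of the threshold. Of 92 called values, 55 did so in every setting. Leaving out a library reversed none. Counts of called members moved by over 1.5 times in these cases: OL change at dpi 10 (5 called), 3 with only the groups compared and 3 without the 5 OL libraries high in astrocyte markers; OL enrichment at dpi 42 (9), 5 with library sizes alone; differential enrichment at dpi 42 (6), 3 with a total RNA library as TMM reference and 3 without those 5 libraries; and OL dpi 42 against dpi 2 (5), 2 with only the groups compared. Leaving out each library gave 3 to 5 called in OL change at dpi 10 (3 without OL naive replicate 2 or 3 or OL dpi 10 replicate 2) and 3 to 5 in differential enrichment at dpi 42.

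Signs turned under 2 settings, and the 4 values given with a q were called in the opposite direction. With the length and GC offset these were Nqo1 (-0.13) and Gsr (-0.0133) in OL change at dpi 42, Srxn1 in total RNA at dpi 10 (-0.0032), Gpx4 enrichment in naive mice (0.68, q = 4.72e-05) and Txnrd1 enrichment at dpi 2 (0.43, q = 0.00221). With library sizes alone, under which the median enrichment of all genes is -0.80 to -0.69, they were enrichment of Keap1 (-0.0636) and Gclm (-0.24, q = 0.0177) in naive mice, Gclc (-0.0445) and Gclm (-0.0338) at dpi 2, Nfe2l2 (-0.14), Keap1 (-0.0047) and Txnrd1 (-0.38, q = 0.00643) at dpi 10, and Txnrd1 (-0.0512) at dpi 42.

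With a replicate block (tissue pools for enrichment, replicate numbers for changes, the latter without the 2 libraries with disagreeing labels), the members called were 9, 4 and 5 in OL change and 6, 6 and 3 in total RNA at dpi 2, 10 and 42. For the changes the pairing is of numbers only: 1 of 16 pairs correlated by over 0.1. There Keap1 at dpi 2 gained a call (0.28, q = 0.0464), and Txnrd1 at dpi 10 (q = 0.0515), Gsr at dpi 42 (q = 0.0998) and Gsr at dpi 42 against dpi 2 (q = 0.114) lost theirs. For enrichment and differential enrichment the tissue pools changed 1 call, that of Gpx1 at dpi 42 (1.53, q = 0.105).

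Over all genes, fitting only the groups compared moved OL dpi 42 against dpi 2 from 1529 up and 1486 down to 359 and 390, and total change at dpi 10 from 2392 up to 4582. A total RNA library as TMM reference moved differential enrichment at dpi 42 from 750 up and 596 down to 319 and 1440, and library sizes alone moved enrichment at dpi 2 from 4252 up and 4945 down to 1853 and 8166. The cause was not tested. Depth limits no member: the lowest stands at 7.60 CPM, where 3 counts are worth at most 0.127 CPM.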
